A study of Vitis vinifera and Vitis x champinii x Vitis riparia and Vitis cinerea var. helleri x Vitis rupestris with 22 samples.

Results

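The transcripts described here are 224 genes whose signal was lower in salt-treated than in control roots of the grapevine rootstock K51-40, out of 26241 genes on the array. They were chosen by that difference itself. The array's log2 values were averaged over all spots of a gene, and a gene was kept when the mean of the K51-40 salt arrays was at least 0.6 log2 units below the mean of the K51-40 control arrays and every salt array was below every control array. Of all genes, 226 met both conditions, which is 0.861%, and 2 of them are not reported here. The K51-40 difference therefore carries no test in what follows, and is given only as a description.

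The study compared roots of 3 grapevines that differ in how much chloride reaches the shoot. K51-40 is a rootstock from Vitis champinii and V. riparia, Cabernet Sauvignon is a V. vinifera wine cultivar, and 140 Ruggeri is a rootstock from V. berlandieri and V. rupestris. Rooted leaves, which are detached leaves that have formed roots at the petiole, were grown in hydroponics and held for 4 days with salt at 50 mM Cl-, given as sodium, calcium and magnesium salts, or without the added salt. Each array carried root RNA pooled from 4 rooted leaves of 1 variety and 1 treatment, with 4 salt and 4 control arrays for K51-40, 4 and 4 for Cabernet Sauvignon, and 3 and 3 for 140 Ruggeri. The probes were designed on V. vinifera transcripts, so in the rootstocks a weaker match of probe to transcript and a lower transcript level cannot be told apart when varieties are compared. Within a variety the same probes read both treatments.

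The families described below have well-known roles. Phenylalanine ammonia-lyase (PAL) removes ammonia from phenylalanine and opens the phenylpropanoid pathway, from which plants make lignin, flavonoids and stilbenes. In grapevine, stilbene synthase (STS) uses the same substrates as chalcone synthase to make resveratrol, a phytoalexin, and both PAL and STS are large families with many near-identical tandem copies. Jasmonate is an oxylipin hormone made from linolenic acid, and EDS1 and PAD4 are lipase-like partners in immune signalling, as worked out in Arabidopsis. HKT-type transporters move sodium or potassium and CAX exchangers load calcium into the vacuole, which makes both of interest in a salt treatment.

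Across the 22 arrays, 72.5% to 82.0% of spots were well above background and the median over all genes ranged narrowly around 7.6 log2 units. The scanner file labelled Cabernet Sauvignon control 3 matched the processed values of K51-40 control 1 best, while the other 21 scanner files matched their own processed values best. The results below use the processed values, and the scanner file was used only in the alternatives. The annotated genes for green tissue numbered 8, with array means of 8.94 to 9.36 in K51-40 salt roots and 9.30 to 9.75 in K51-40 control roots, and none of the 8 was a member. They averaged 8.64 to 9.02 in Cabernet Sauvignon salt roots and 9.08 to 9.34 in its control roots, also without overlap, and 8.83 to 9.30 and 9.07 to 9.41 in 140 Ruggeri, with overlap. The 5 root-tissue genes averaged 9.85 to 10.05 on the K51-40 salt arrays and 9.37 to 9.46 on the control arrays, and 1 of the 5, annotated as UPF0497 family, was a member. In Cabernet Sauvignon they averaged 9.70 to 9.95 in salt and 9.52 to 9.73 in control roots, and in 140 Ruggeri 9.56 to 9.76 in salt and 9.23 to 9.51 in control roots, with overlap only in Cabernet Sauvignon. Their part in the differences below was not tested. In such bulk RNA, fewer cells of a type and less RNA per cell cannot be told apart.

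The median difference of the 224 genes between salt and control in K51-40 was -0.74, and the range was -1.73 to -0.60. The decrease was at least 1.0 log2 unit in 32 genes and at least 0.8 in 78. Every gene was read by 2 probes. Both probes gave a negative difference in all 224 genes and both were at -0.6 or less in 170. The median level of the members was 8.10, 8.42, 8.42 and 8.51 on the K51-40 salt arrays, against 8.96, 9.15, 9.08 and 9.33 on the K51-40 control arrays. Salt array 1 was the lowest, and no salt array reached the lowest control. Both treatments were present on a pair of array slides. Within them the medians were -0.85 and -0.75. The first set salt arrays 1 and 2 against control 2 alone. The second set salt arrays 3 and 4 against controls 3 and 4, and 191 genes were at -0.6 or less there. A negative sign in these values was fixed by the choice of genes, and a large decrease was favoured by it.

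Most members were well measured. Of the 224 genes, 207 were above background on every array with a usable scanner file, and all were above background on every K51-40 control array. The choice of genes favoured detection in K51-40 control roots, and the share over all genes was not set beside these counts. Polygalacturonase QRT3 was above background on none of the K51-40 salt arrays, so its K51-40 difference of -0.82 is only a bound. Just inside the limit lay kinase interacting protein, Derlin-1 and an allergen at -0.6034, -0.6023 and -0.6009. Just outside it lay asparagine synthetase, an unknown protein and lactoylglutathione lyase at -0.5991, -0.5990 and -0.5989.

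**Figure D1:**
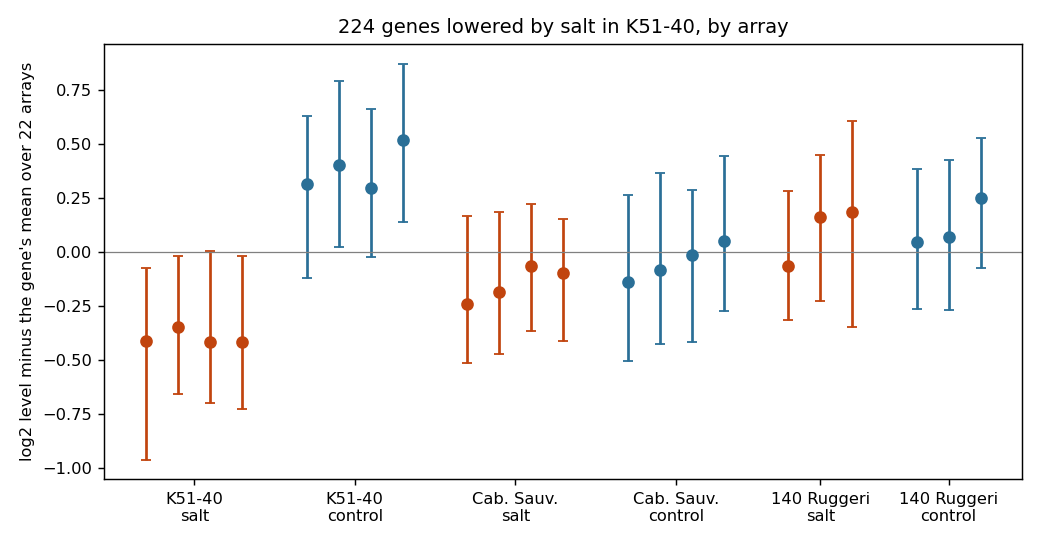
Level of the 224 genes on each of the 22 arrays, as each gene's log2 value minus its mean over all arrays; the median and the quartiles over genes are drawn, with salt arrays left of control arrays in each variety. The K51-40 salt arrays have medians of -0.35 to -0.42 and the K51-40 control arrays 0.29 to 0.52, while the medians of the other varieties lie between -0.24 and 0.25.

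In the other varieties the same genes had salt differences spread around 0. The median was -0.04 in Cabernet Sauvignon, with a range of -1.02 to 0.72, and -0.02 in 140 Ruggeri, with a range of -1.14 to 0.72. Over all genes both medians were within 0.01 of 0. In Cabernet Sauvignon 129 members were below 0, which is 57.59% against 50.0% of all genes, and in 140 Ruggeri 120 were, which is 53.57% against 50.7%. Members below 0 in both varieties numbered 92 and members below 0 in neither numbered 67. The difference was between -0.3 and 0.3 in 151 members in Cabernet Sauvignon and in 167 members in 140 Ruggeri. Whether the salt response itself differed between K51-40 and the other varieties was not tested, because the K51-40 response chose the genes.

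**Figure D2:**
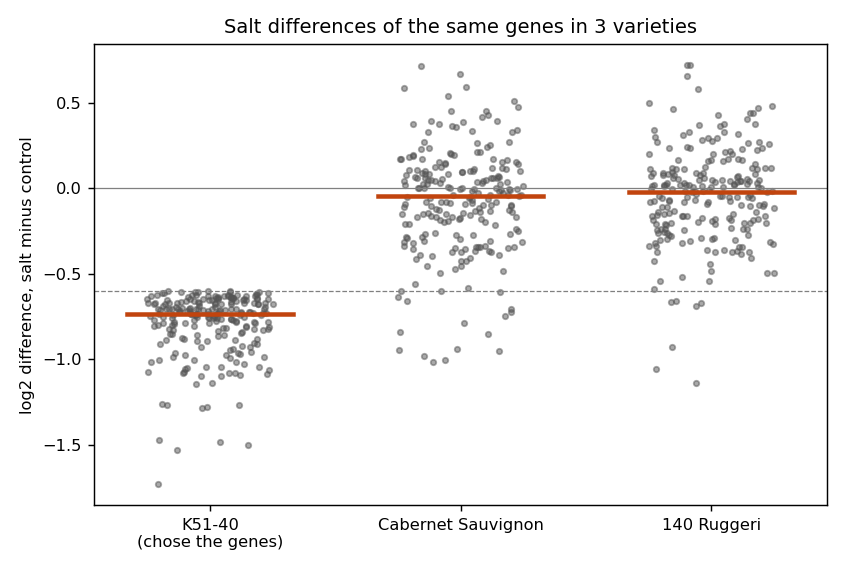
Salt minus control difference, in log2 units, of each of the 224 genes in the 3 varieties. All K51-40 values lie at -0.60 or below because the genes were chosen there, and the values of Cabernet Sauvignon and 140 Ruggeri scatter around 0 with medians of -0.04 and -0.02.

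Descriptions of genes came from the study's own gene lists, which named 3266 of the 26241 genes and 183 of the 224 members. Those lists were chosen on these samples, so the counts below of members per family, 5.60% over all annotated genes, are not independent evidence of a direction. Near-identical copies within a family may share signal on one another's probes, and the members of such a family are then not separate measurements.

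Phenylpropanoid entry genes were prominent, and mostly encoded PAL. All 12 annotated PAL genes were at -0.6 or less in K51-40 and 11 were members, while the treatments overlapped in the other (VIT_06s0004g02620). Averaged over the 11 members, PAL was at 11.84, 11.99, 12.13 and 11.47 on the K51-40 salt arrays, against 12.51, 12.84, 12.64 and 12.53 on the control arrays. The groups did not overlap, and salt array 4 was the lowest. The mean was 11.86 ± 0.28 in salt and 12.63 ± 0.15 in control roots (SD, n = 4 each). Cabernet Sauvignon averaged 11.74 ± 0.08 in salt and 11.76 ± 0.08 in control roots (SD, n = 4 each), and 140 Ruggeri 12.05 ± 0.51 and 11.98 ± 0.34 (SD, n = 3 each), with overlap in both. The individual PAL differences were -0.17 to 0.08 in Cabernet Sauvignon and -0.02 to 0.26 in 140 Ruggeri, and none was called.

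PAL members are physically grouped. Of the 11, 7 lie in a run of loci from VIT_16s0039g01110 to VIT_16s0039g01360 on chromosome 16, and their K51-40 differences were -0.85 to -0.67. PAL VIT_16s0039g01170, the largest PAL decrease at -0.85, read 12.63, 12.84, 12.93 and 12.02 in K51-40 salt roots, against 13.34, 13.66, 13.49 and 13.31 in K51-40 control roots. A gene for 4-coumarate-CoA ligase 1, which activates coumaric acid a few steps after PAL, was the remaining member of the 16 entry-pathway genes. It read 9.33, 9.39, 9.17 and 8.98 in K51-40 salt roots, against 10.16, 10.29, 9.61 and 9.85 in control roots. Its level differed by 0.04 in Cabernet Sauvignon and -0.18 in 140 Ruggeri between salt and control.

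Stilbene synthase genes followed the same arrays. All 11 annotated STS genes were at -0.6 or less in K51-40 and 9 were members. The run of loci from VIT_16s0100g00770 to VIT_16s0100g01020 on chromosome 16 held 8 of these and a member annotated as chalcone synthase (VIT_16s0100g00860). Averaged over the 9 members of the run, the level was 12.75, 13.19, 13.34 and 12.52 on the K51-40 salt arrays, against 13.58, 14.07, 13.91 and 13.75 on the control arrays. Array 4 was again the lowest in salt and array 2 the highest in control, as for PAL. In Cabernet Sauvignon the run averaged 12.94 ± 0.22 in salt and 12.71 ± 0.03 in control roots (SD, n = 4 each), and in 140 Ruggeri 13.30 ± 0.24 and 13.21 ± 0.14 (SD, n = 3 each). The 9 STS members differed by -0.08 to 0.37 in Cabernet Sauvignon and by 0.01 to 0.29 in 140 Ruggeri, with 1 of 9 and 0 of 9 below 0. None of these differences was called.

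The largest STS decrease was outside that run. STS VIT_10s0042g00930 read 8.78, 9.64, 9.79 and 8.32 in K51-40 salt roots, against 10.38, 10.76, 10.67 and 10.67 in K51-40 control roots, a difference of -1.48. Salt arrays 1 and 4 were the low ones. The same gene read 9.11, 9.62, 10.05 and 10.00 in Cabernet Sauvignon salt roots, against 9.18, 9.43, 9.24 and 9.48 in its control roots, and those groups overlapped.

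**Figure D3:**
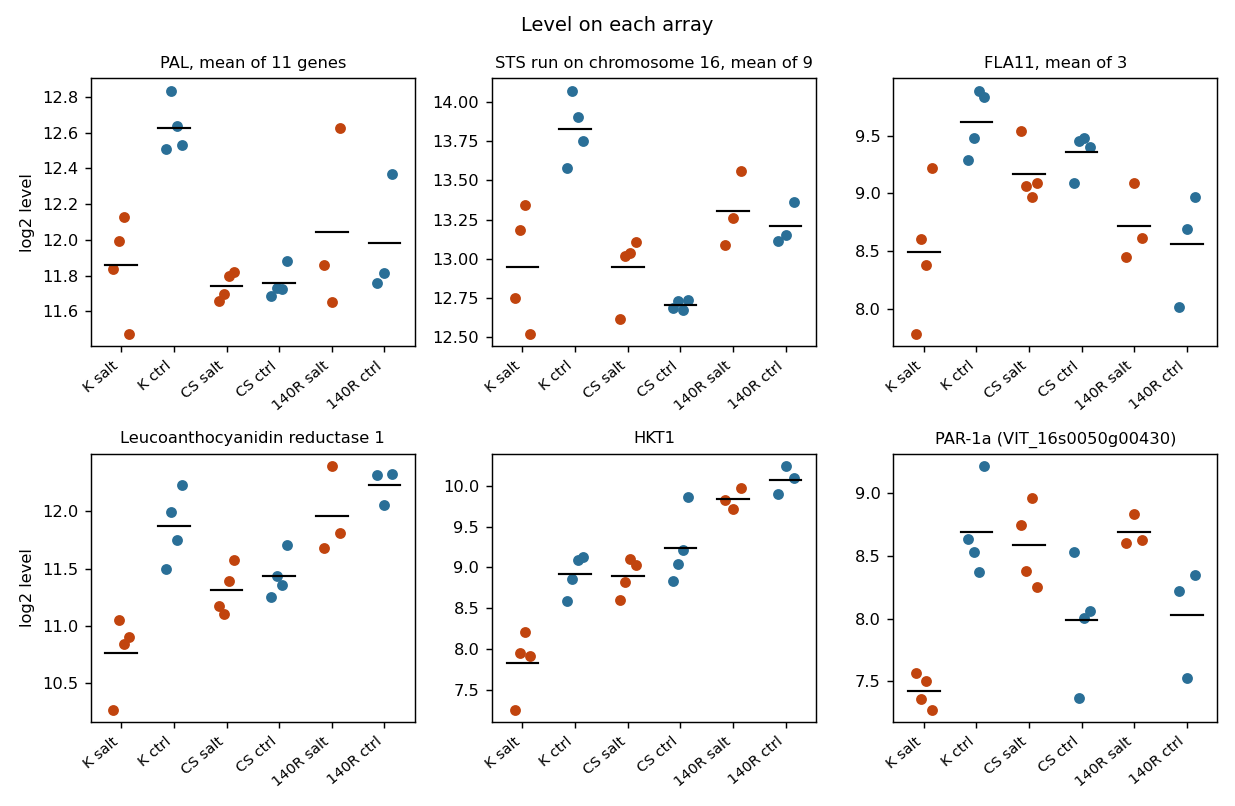
Log2 level of selected members on every array, with salt left of control in each variety (K, K51-40; CS, Cabernet Sauvignon; 140R, 140 Ruggeri); each point is 1 array, each line a group mean, and the axes start above 0. In K51-40 every salt point lies below every control point in each panel, as the choice of genes required, while the other varieties overlap or not from gene to gene.

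Flavonoid genes contributed 6 members of 40 annotated. Leucoanthocyanidin reductase 1, which makes catechin for proanthocyanidins, read 10.27, 11.05, 10.85 and 10.91 in K51-40 salt roots, against 11.50, 11.996, 11.75 and 12.23 in K51-40 control roots. MYBPA1, a Myb factor known in grapevine for switching on proanthocyanidin genes, read 10.39, 10.35, 10.05 and 10.48 in salt, against 10.85, 11.20, 10.62 and 11.24 in control. Their differences were -1.10 and -0.66. The other members were a 2'-hydroxy isoflavone/dihydroflavonol reductase at -0.95, a flavonoid 3',5'-hydroxylase at -0.77 and a flavonol 3-O-glucosyltransferase at -0.68. The member of the STS run annotated as chalcone synthase, at -1.06, is counted here by its label only. In both other varieties 5 of the 6 were below 0, at -0.35 or above, and none was called. The exception in both was the gene labelled chalcone synthase, at 0.42 in Cabernet Sauvignon and 0.06 in 140 Ruggeri.

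Lignin-related genes contributed 2 of 31 annotated, a catechol O-methyltransferase at -0.83 and a dirigent protein at -0.62. Dirigent proteins steer the coupling of monolignol radicals. The dirigent member was called higher in Cabernet Sauvignon, as given below.

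Jasmonate and oxylipin genes contributed 4 of 16 annotated. Lipoxygenase LOX2, which oxygenates linolenic acid, read 7.77, 6.74, 7.50 and 7.61 in K51-40 salt roots, against 7.81, 8.99, 8.38 and 8.41 in control roots. The nearest salt and control arrays were 0.04 apart, so LOX2 met the second condition narrowly although its mean difference was -0.99. Jasmonate ZIM-domain protein 1 (JAZ1), a repressor that is itself induced by jasmonate, read 11.28, 10.73, 10.84 and 11.15 in K51-40 salt roots, against 11.74, 12.31, 12.09 and 11.55 in control roots. A 12-oxophytodienoate reductase, a family that includes the enzyme completing the ring reduction of the jasmonate precursor, differed by -0.71, and jasmonate O-methyltransferase, which makes the volatile methyl ester, by -0.64. Over the 4 genes the salt and control means were 7.97 ± 0.16 and 8.78 ± 0.16 in K51-40, 7.52 ± 0.17 and 7.46 ± 0.12 in Cabernet Sauvignon (SD, n = 4 each), and 8.67 ± 0.13 and 8.65 ± 0.14 in 140 Ruggeri (SD, n = 3 each).

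Defence genes numbered 7 of 127 annotated. EDS1 read 10.63, 10.87, 10.94 and 11.12 in K51-40 salt roots, against 11.39, 11.90, 11.72 and 11.52 in control roots, a difference of -0.74. Its partner PAD4, which the naming rule did not cover and which was picked after its values were seen, read 9.13, 9.33, 9.31 and 8.75 in salt, against 9.84, 10.57, 10.32 and 9.85 in control, a difference of -1.02. In Cabernet Sauvignon EDS1 differed by 0.08 and PAD4 by less than 0.01. In 140 Ruggeri the differences were 0.12 for EDS1 and 0.43 for PAD4, and their groups overlapped. The other defence members were PMR5 at -0.84, pathogenesis-related protein 1 at -0.77, the EIX receptor, which in tomato recognises a fungal xylanase, at -0.75, HcrVf3 at -0.68, Avr9/Cf-9 induced kinase 1 at -0.64 and MLO1, of the powdery mildew susceptibility family, at -0.63. The members averaged 8.18 ± 0.07 in salt and 8.90 ± 0.20 in control roots of K51-40 (SD, n = 4 each), 8.65 ± 0.04 and 8.60 ± 0.05 in Cabernet Sauvignon (SD, n = 4 each), and 8.67 ± 0.11 and 8.56 ± 0.04 in 140 Ruggeri (SD, n = 3 each). Receptor kinases contributed 4 of 104 annotated, at -0.74 to -0.63.

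Of 116 annotated transcription factors, 11 were at -0.6 or less in K51-40 and 6 were at 0.6 or more. The members numbered 6, MYBPA1 among them. The others were Myb CCA1 at -0.71, WRKY53 at -0.71, the C2H2 zinc finger JACKDAW at -0.67, NAC domain protein 36 at -0.67 and RAP2.8 at -0.61. WRKY53 is known in Arabidopsis as a regulator of leaf senescence, and JACKDAW for patterning the root ground tissue. TSRF1, an ethylene response factor outside the keyword list, read 6.34, 7.07, 7.68 and 6.11 in K51-40 salt roots, against 7.86, 8.18, 8.01 and 7.74 in control roots. Salt array 3 lay just below the lowest control.

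Membrane transport gave 14 members of 244 annotated. Of the 244, 20 were at -0.6 or less in K51-40 and 9 were at 0.6 or more. High-affinity K+ transporter 1 (HKT1) read 7.26, 7.95, 8.21 and 7.91 in K51-40 salt roots, against 8.59, 8.86, 9.09 and 9.13 in control roots, a difference of -1.09. It read 8.60, 8.83, 9.11 and 9.03 in Cabernet Sauvignon salt roots, against 8.84, 9.04, 9.21 and 9.86 in its control roots. In Arabidopsis HKT1 retrieves sodium from the xylem. In 140 Ruggeri HKT1 read 9.83, 9.71 and 9.97 in salt roots, against 9.90, 10.24 and 10.09 in control roots. The differences of -0.35 in Cabernet Sauvignon (adjusted p = 0.454, limma) and -0.24 in 140 Ruggeri (adjusted p = 0.840) were not called, and the groups overlapped in both.

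CAX3 is a vacuolar calcium/proton exchanger, and copper transporter 2 belongs to a family of copper uptake proteins. CAX3 read 7.13, 7.63, 7.85 and 7.72 in K51-40 salt roots, against 8.29, 8.41, 8.72 and 8.56 in control roots. Copper transporter 2 read 9.17, 9.82, 9.78 and 9.70 in K51-40 salt roots, against 10.24, 10.43, 10.45 and 10.76 in control roots. Array 1 was the lowest K51-40 salt array for HKT1, CAX3 and copper transporter 2, and the control mean of each was highest in 140 Ruggeri. In 140 Ruggeri CAX3 read 9.66, 9.39 and 9.64 in salt roots, against 9.87, 9.93 and 9.92 in control roots. These groups did not overlap, but the difference of -0.35 was not called (adjusted p = 0.677). A MATE efflux protein differed by -1.08 in K51-40, aquaporin TIP1;3 by -0.64, cation exchanger CAX7 by -0.65, calcium-transporting ATPase ACA12 by -0.64 and polyol transporter 5 by -0.70. Of the 14 transport members 1, ABC transporter G member 14, was called lower with salt in Cabernet Sauvignon.

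Cell wall genes numbered 11 of 89 annotated. Of the 89, 15 were at -0.6 or less in K51-40 and 11 were at 0.6 or more, so the list was not lowered as a class. All 3 genes annotated as FLA11, a fasciclin-like arabinogalactan protein of secondary walls, were members and lie between VIT_08s0040g01970 and VIT_08s0040g02070 on chromosome 8. Averaged over these genes the level was 7.78, 8.60, 8.38 and 9.22 on the K51-40 salt arrays, against 9.29, 9.48, 9.89 and 9.83 on the control arrays. Here salt array 4, the lowest for PAL and STS, was the highest, and array 1 was the lowest. LRX1, a leucine-rich repeat extensin that acts in root hair walls in Arabidopsis, read 13.00, 12.62, 12.54 and 13.23 in salt, against 13.76, 13.87, 13.97 and 13.91 in control. A pectate lyase differed by -1.01, a pectinesterase by -0.67, and a pair of proline-rich proteins by -0.78 and -0.74. Cellulose synthase-like CSLG3 differed by -0.64 in K51-40 and was called higher in Cabernet Sauvignon.

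The largest decreases included genes without a description. GSVIVT01021699001 read 7.74, 8.99, 9.08 and 8.75 in K51-40 salt roots, against 9.98, 10.50, 10.63 and 10.39 in control roots, a difference of -1.73. GSVIVT01013771001 differed by -1.50, with salt array 1 at 8.95 and the other salt arrays at 10.701 to 10.807. Both were also at -0.5 or less in Cabernet Sauvignon and in 140 Ruggeri, where neither was called. A glutaredoxin, a thiol oxidoreductase, read 8.01, 7.75, 6.66 and 7.18 in K51-40 salt roots, against 9.18, 9.07, 8.51 and 8.98 in control roots. Its difference of -1.53 compares with -0.84 in Cabernet Sauvignon (adjusted p = 0.185) and 0.02 in 140 Ruggeri (adjusted p = 0.996).

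A gene annotated as DNA (cytosine-5)-methyltransferase (ATHIM) read 6.22, 6.25, 5.98 and 6.45 in K51-40 salt roots, against 7.76, 7.63, 7.37 and 8.04 in control roots. Its values in the other varieties were 4.92 to 5.39, and it was above background on none of the 140 Ruggeri control arrays. Subtilisin protease C1 differed by -1.29 in K51-40 and carboxyesterase CXE18 by -1.14, each beside another member with the same description at a nearby locus. Photoassimilate-responsive protein PAR-1a (VIT_16s0050g00430) read 7.56, 7.36, 7.50 and 7.27 in K51-40 salt roots, against 8.64, 8.53, 8.37 and 9.21 in control roots. In 140 Ruggeri it read 8.60, 8.84 and 8.62 in salt, against 8.22, 7.53 and 8.35 in control. Those groups did not overlap and lay in the opposite order, but the difference of 0.66 was not called (adjusted p = 0.440). Cytochrome P450 genes gave 3 members of 61 annotated, peroxidase and redox genes 2 of 68, and heat shock genes 0 of 36. In these lists 7, 3 and 0 genes were at -0.6 or less in K51-40, and 4, 8 and 9 were at 0.6 or more.

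Salt in Cabernet Sauvignon was tested with limma over all 26241 genes, and a gene was called at an adjusted p of 0.05 or less (Benjamini-Hochberg) with a difference of at least 0.5. Of the members, 9 were called lower, which is 4.02% against 0.309% of all genes, and 3 were called higher, which is 1.34% against 0.598%. Salt and control arrays did not overlap in 24 members with salt lower, 10.71% against 5.19% of all genes, and in 9 members with salt higher, 4.02% against 5.25%. The number called was 12 in all. It was 19 when array slide entered as a fixed term and 5 under 4 alternatives that started from the scanner values. When each of the 8 Cabernet Sauvignon arrays was left out in turn, 7 of the 12 kept their call every time. The zinc ion binding protein, ABC transporter G member 14 and CSLG3 kept it under all 21 alternatives, leaving out arrays included, while CCA1 and CRR4 lost it under 1.

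**Figure D4:**
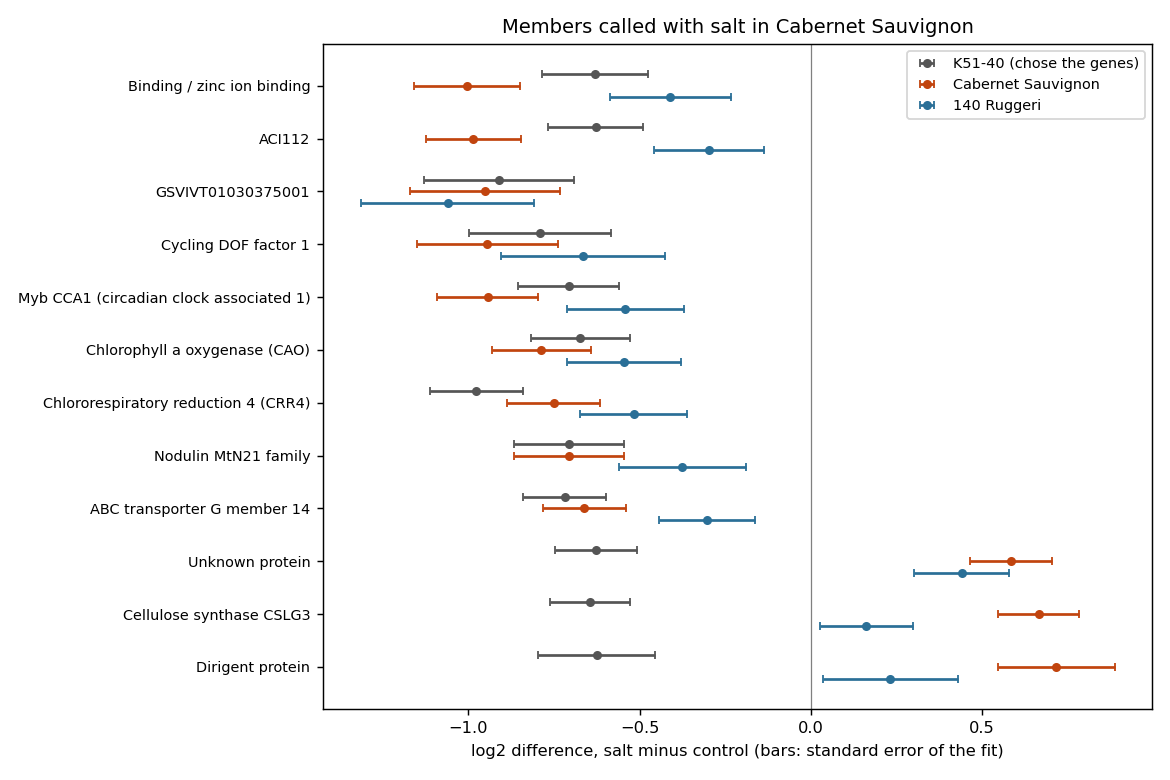
Salt minus control difference, in log2 units, of the 12 members called in Cabernet Sauvignon, shown for the 3 varieties with bars of 1 standard error from limma. In Cabernet Sauvignon 9 lie between -1.0035 and -0.66 and 3 between 0.58 and 0.72, while all 12 are at or below -0.6 in K51-40.

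The members called lower in Cabernet Sauvignon included clock-related genes. Myb CCA1, a core component of the morning loop of the Arabidopsis circadian clock, read 8.16, 7.82, 7.52 and 7.69 in Cabernet Sauvignon salt roots, against 8.85, 8.80, 8.75 and 8.56 in control roots, a difference of -0.94 (adjusted p = 0.00119). In K51-40 it read 8.28, 7.74, 7.87 and 8.30 in salt, against 8.96, 8.75, 8.39 and 8.92 in control. In 140 Ruggeri it read 8.01, 8.08 and 7.93 in salt, against 8.52, 8.75 and 8.38 in control. None of these groups overlapped, although the 140 Ruggeri difference of -0.54 was not called (adjusted p = 0.282).

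Cycling DOF factor 1, which in Arabidopsis represses flowering genes under clock control, differed by -0.94 in Cabernet Sauvignon (adjusted p = 0.0212), -0.66 in 140 Ruggeri and -0.79 in K51-40. Its Cabernet Sauvignon call was lost when control 1, 2 or 3 or salt 2, 3 or 4 was left out, with adjusted p up to 0.0787. A zinc ion binding protein (VIT_11s0016g04930) differed by -1.0035 (adjusted p = 0.000998) and ACI112 by -0.98 (adjusted p = 0.000464) in Cabernet Sauvignon. The ACI112 call was lost under 5 of the 21 alternatives, with adjusted p up to 0.485. GSVIVT01030375001 differed by -0.95 (adjusted p = 0.0305), a call lost without any of the same 6 arrays, with adjusted p up to 0.120.

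The other members called lower in Cabernet Sauvignon fell outside the naming rule and are named because the count is short. Chlorophyll a oxygenase (CAO), which makes chlorophyll b, differed by -0.79 and read 9.02, 8.83, 8.68 and 8.71 in salt roots, against 9.80, 9.54, 9.55 and 9.51 in control roots. Its call was lost under 5 of the 21 alternatives, with adjusted p up to 0.214. A gene annotated as chlororespiratory reduction 4 (CRR4) differed by -0.75 and read 6.10, 5.95, 5.90 and 6.00 in salt, against 6.63, 6.81, 6.91 and 6.61 in control. ABC transporter G member 14, an exporter of cytokinin from Arabidopsis roots, differed by -0.66 and a nodulin MtN21 family gene by -0.71. The nodulin call was lost without control 1, 3 or 4 or without salt 2 or 4, with adjusted p up to 0.112.

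The 3 members called higher in Cabernet Sauvignon were at -0.64 to -0.62 in K51-40. CSLG3 read 9.88, 9.93, 9.88 and 9.83 in Cabernet Sauvignon salt roots, against 9.18, 9.08, 9.15 and 9.45 in control roots, a difference of 0.66 (adjusted p = 0.00400). The dirigent protein read 11.75, 11.69, 12.30 and 12.09 in salt, against 11.60, 11.02, 11.01 and 11.34 in control, a difference of 0.72 (adjusted p = 0.0364). The dirigent call was lost without control 2, 3 or 4 or without salt 3 or 4, with adjusted p up to 0.138. An unknown protein (VIT_19s0014g02770) differed by 0.58 (adjusted p = 0.0128), and lost its call without Cabernet Sauvignon control 1 or salt 2, with adjusted p up to 0.0613.

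In 140 Ruggeri, with 3 arrays per treatment, limma called 0 members lower, against 0.0152% of all genes, and 0 higher, against 0.0724%. At an unadjusted p of 0.05 or less, 26 members were lower, 11.6% against 4.61% of all genes, and 10 were higher, 4.46% against 4.18%. Salt and control did not overlap in 30 members with salt lower, 13.39% against 6.73% of all genes, and in 9 with salt higher, 4.02% against 6.01%. Same-numbered salt and control arrays of 140 Ruggeri deviated together, although the labels do not pair them. With the replicate number as a block 4 members were called lower, 1.79% against 0.0876% of all genes, and 0 higher, against 0.232%.

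The 4 were CAO at -0.55, CRR4 at -0.52, GSVIVT01030375001 at -1.06 and an unknown protein (VIT_12s0059g01900) at -0.66. The unknown protein read 8.52, 8.72 and 8.63 in 140 Ruggeri salt roots, against 9.28, 9.38 and 9.19 in control roots, and had the lowest adjusted p of the members without the block, 0.063. GSVIVT01030375001 read 9.27, 8.88 and 8.82 in 140 Ruggeri salt roots, against 10.02, 10.26 and 9.88 in control roots, with no overlap. CAO, CRR4 and GSVIVT01030375001 were also among the 9 called lower in Cabernet Sauvignon. Members at -0.5 or less in both varieties other than K51-40 numbered 8, and CCA1, Cycling DOF factor 1, CAO and CRR4 are the described ones.

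The control levels of the members were then compared between 140 Ruggeri and Cabernet Sauvignon, with no K51-40 mean in the contrast. The K51-40 arrays that chose the genes did enter the spread shared by all groups in the fit. Of the 224 genes, 73 were called higher in 140 Ruggeri, 32.6% against 14.0% of all genes, and 47 were called lower, 21.0% against 14.7%. The median difference was 0.21, against 0.04 over all genes, and the range was -2.94 to 2.88. When each control array was left out in turn, 97 of the 120 kept their call. Probe match and transcript level cannot be told apart in these values.

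Of the oxylipin and transport genes, LOX2 read 7.29, 7.63 and 7.52 in 140 Ruggeri control roots, against 4.92, 5.38, 5.21 and 5.23 in Cabernet Sauvignon control roots, a difference of 2.30 (adjusted p = 2.22e-08). LOX2 was above background on only 1 of the 3 Cabernet Sauvignon control arrays with a usable scanner file, so the size of this difference is uncertain at the low end. HKT1 was higher in 140 Ruggeri by 0.84 (adjusted p = 0.00254), CAX3 by 1.27 (adjusted p = 1.83e-05) and copper transporter 2 by 0.98 (adjusted p = 0.000416). Of the 9 STS members, 7 were called higher in 140 Ruggeri and 1 was called lower.

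Other members differed strongly. A GDSL lipase (VIT_09s0054g00880) read 8.74, 8.76 and 8.77 in 140 Ruggeri control roots, against 5.62, 5.83, 5.96 and 6.12 in Cabernet Sauvignon control roots, a difference of 2.88. An ankyrin repeat protein (VIT_00s0256g00040) read 5.77, 5.79 and 5.63 in 140 Ruggeri, against 8.38, 9.16, 9.06 and 8.08 in Cabernet Sauvignon, a difference of -2.94. It was above background on only 2 of the 3 control arrays of 140 Ruggeri, so the size of this difference is uncertain. A carbonic anhydrase precursor read 7.35, 7.50 and 7.53 in 140 Ruggeri, against 9.17, 9.42, 9.36 and 9.44 in Cabernet Sauvignon, a difference of -1.89. In each of these the groups were far apart. STS VIT_16s0100g00770 was lower in 140 Ruggeri by 1.79 on the log2 scale, and the other 7 called genes of its run were higher. All 3 FLA11 genes were called lower in 140 Ruggeri, but each lost its call without 140 Ruggeri control 1, with adjusted p of 0.0502 to 0.295.

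**Figure D5:**
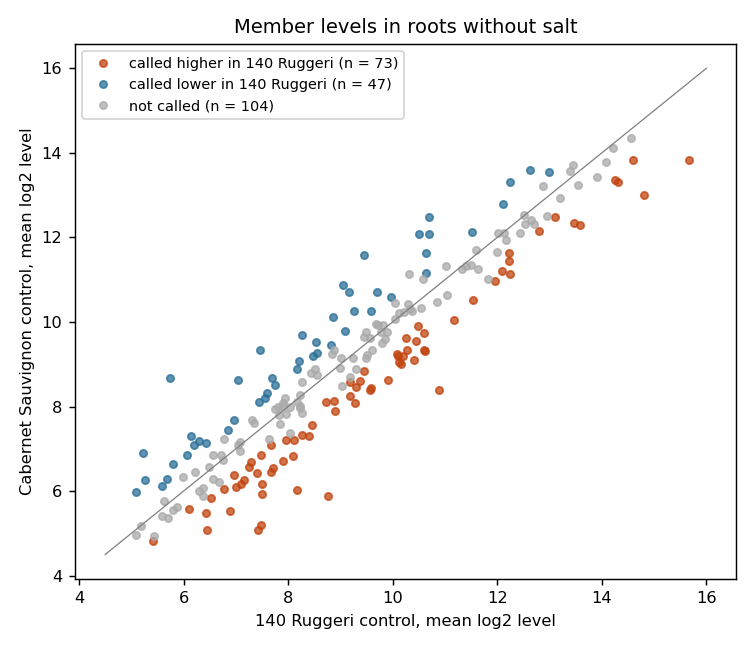
Mean log2 level of each of the 224 genes in control roots of 140 Ruggeri and Cabernet Sauvignon, with the 73 genes called higher and the 47 called lower in 140 Ruggeri marked; the diagonal line marks equal levels. More marked genes lie on the side of 140 Ruggeri than on that of Cabernet Sauvignon.

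K51-40 levels stood beside those of the other varieties as follows, as a description. The K51-40 control mean was the highest of the 3 control means in 123 members, while 35.0% of all genes had their highest control mean there, and it was the lowest in 51. The K51-40 salt mean was the lowest of the 3 salt means in 127 members, while 30.3% of all genes had theirs there. The median level of the members was 8.39 in salt and 9.09 in control roots of K51-40, 8.75 and 8.88 in Cabernet Sauvignon, and 8.97 and 9.02 in 140 Ruggeri. Since K51-40 arrays of both treatments chose the genes, the rule favoured a high K51-40 control mean and a low K51-40 salt mean. Beta-primeverosidase, a glycosidase that releases aroma compounds in tea, had K51-40 control values 3.26 above the mean of the other controls. It read 9.92, 10.39, 9.62 and 10.07 in K51-40 control roots, against 6.97, 7.30, 7.56 and 6.88 in Cabernet Sauvignon control roots and 6.39, 6.15 and 6.34 in 140 Ruggeri control roots. A pleiotropic drug resistance ABC transporter (PDR12) was at the other end, at -1.53, and EDS1 was at -1.41 on the same measure.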

How the data were processed

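Root RNA was hybridised to 1-colour Agilent arrays (22 arrays, 61657 spots kept). The authors extracted median spot intensity with Agilent Feature Extraction 10.7.3, and deposited log2 values after quantile normalization and ComBat correction for hybridisation date. These deposited log2 values were used as given and averaged over the spots of each gene. The deposited scanner intensity files served for background flags and alternatives. ComBat shrinks differences between dates, and replicates 1 and 2 of K51-40 were scanned on another date than 3 and 4. Cabernet Sauvignon control 4 and salt 3 and 4 shared the date of K51-40 replicates 3 and 4, and all other arrays shared the other date. The contrasts with Cabernet Sauvignon arrays were therefore unbalanced over dates, and the main fit had no date term. The number of arrays limits the precision.

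Group means were fitted over all 22 arrays in limma 3.58.1 (R 4.3.3, statmod 1.5.0) with Benjamini-Hochberg adjustment over 26241 genes. All groups shared a spread, to which the K51-40 arrays that chose the members contributed. Scripts ran in Python 3.11.15 (pandas 2.3.3, numpy 2.4.6, matplotlib 3.10.9), and were tested on simulated data. Replicates were separate pools of plants as far as the labels say, and p-values measure the spread between these arrays. The members, the 15 keyword lists and the tests were chosen with earlier results of these data known. Genes were named by rule: the 12 largest K51-40 decreases, up to 4 per list, up to 5 per direction and tested contrast, 3 on each side of the limit, and 3 at each end of the K51-40 control level. Other members named in the text fell outside this rule and were picked with their values known. They include MYBPA1, 4-coumarate-CoA ligase 1, QRT3, TIP1;3, CAX7, ACA12, HcrVf3, MLO1, RAP2.8, the pectate lyase and the RD22 genes. Columns of per-sample values left unused numbered 0. Deviations of same-numbered salt and control arrays correlated at 0.39, 0.22 and 0.26 in 140 Ruggeri, so the numbers were taken to pair those arrays. In K51-40, which was not tested, they correlated at 0.49, 0.33, 0.38 and 0.38. The labels do not state a pairing, and same-numbered 140 Ruggeri arrays 2 and 3 also shared a slide. The block was fitted in all 3 varieties at once, Cabernet Sauvignon included. Alternatives changed the source of the values, batch and slide terms, filters, thresholds and arrays. Genome coordinates and sequences were not used here.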

Additional observations from a re-analysis of the deposited data

Results flagged for a closer look

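Among the 73 genes named by rule, 292 groups of 4 arrays were looked at for an array far from the other 3. In 10 groups such an array was found, while chance alone gives about 1 in 20. In K51-40 these were GSVIVT01013771001 at 8.95 in salt 1, with the others at 10.701 to 10.807, and jasmonate O-methyltransferase at 7.49 in control 4, with the others at 6.61 to 6.73. Cabernet Sauvignon salt 1 stood apart for STS VIT_16s0100g01020 at 13.19 (others 13.67 to 13.76), STS VIT_16s0100g00770 at 12.10 (others 12.46 to 12.52) and Cycling DOF factor 1 at 12.21 (others 11.31 to 11.45). Cabernet Sauvignon salt 4 stood apart for the S-locus lectin protein kinase at 5.99 (others 6.23 to 6.26) and WRKY53 at 7.38 (others 8.01 to 8.09). Among the Cabernet Sauvignon controls, control 1 stood apart for the chalcone synthase VIT_16s0100g00860 at 12.20 (others 12.38 to 12.39) and FLA11 VIT_08s0040g01970 at 11.33 (others 11.74 to 11.75), and control 4 for pathogenesis-related protein 1 at 5.48 (others 4.93).

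Genes named by rule whose salt arrays were all above the control arrays in another variety, opposite to K51-40, numbered 8. The difference between varieties was not tested. In 140 Ruggeri they were PAR-1a at 0.66, NAC domain protein 36 at 0.50, the S-locus lectin protein kinase at 0.37 and STS VIT_16s0100g00770 at 0.29. In Cabernet Sauvignon they were the dirigent protein at 0.72, CSLG3 at 0.66, the unknown protein VIT_19s0014g02770 at 0.58 and Derlin-1 at 0.34. Over all genes, salt lay above control without overlap in 6.01% in 140 Ruggeri and 5.25% in Cabernet Sauvignon. Among members the share was 4.02% in each variety, so such genes were not more frequent there.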

How the results depend on the processing

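The number of members called with salt in Cabernet Sauvignon, 12 as reported, was 5 from scanner values without batch correction, with scan date as a term, with normexp and scan date as a term, or from the processed signal with 75th percentile scaling and scan date as a term. It was 19 with slide as a fixed term and 1 at an absolute difference of at least 1. Without each array in turn it was 8 to 13. The 4 fits that gave 5 all kept the scanner file labelled Cabernet Sauvignon control 3. The replicate numbers did not pair the Cabernet Sauvignon arrays (correlations 0.16, 0.21, -0.41 and 0.38), and with the replicate block 17 members were called. In 140 Ruggeri 0 members were called as reported, 4 with the replicate block, 2 with slide as a fixed term, 1 with slide as a random block and 2 from scanner values without the array labelled Cabernet Sauvignon control 3. Without each 140 Ruggeri array in turn it was 0 throughout. Between the 140 Ruggeri and Cabernet Sauvignon controls 120 members were called, 49 at an absolute difference of at least 1, and 110 to 118 without each control array in turn. No replicate block could be estimated between these control groups. Apart from the 140 Ruggeri replicate block, the share of all genes called was not set beside these alternative counts. A change in a count is therefore not a result about the members. The causes were not tested.

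The rule gave 224 genes, 78 at a limit of -0.8, and 207 to 304 without each K51-40 array in turn. Without each array in turn the median difference was -0.77 to -0.72 in K51-40, -0.071 to -0.024 in Cabernet Sauvignon, and -0.11 to 0.025 in 140 Ruggeri, where it was above 0 without control 3 or salt 1. With the processed signal, 75th percentile scaling and scan date as a term together, the 140 Ruggeri minus Cabernet Sauvignon control difference reversed for PDR12 (0.0238) and GSVIVT01007855001 (0.0086). That fit kept the scanner file labelled Cabernet Sauvignon control 3, which matched K51-40 control 1 best. Both genes had among the lowest K51-40 control levels relative to the other varieties. The part of that file in the reversal was not tested. Over the named calls, 899 values under alternatives kept direction and call, and 122 kept direction only. A second annotation from the reference tables could not be joined and was not run. The within-slide K51-40 values were added after the data were seen.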

Other observations

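By chromosome of the annotated loci, chromosome 16 held 21 members of its 136 annotated genes and chromosome 1 held 14 of 193, while chromosome 10 held 4 of 117. Runs of neighbouring members outside the PAL, STS and FLA11 loci included a pair of RD22 genes, dehydration-responsive in Arabidopsis, between VIT_04s0008g04040 and VIT_04s0008g04060, which differed by -0.75 and -0.74 in K51-40. A pair of GDSL lipases between VIT_09s0054g00860 and VIT_09s0054g00880 differed by -0.71 and -0.89. Near-identical neighbours may share probe signal, and no test was made of the positions.

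Of 30 genes annotated as ankyrin, 5 were members, and the other 25 did not meet both conditions. The 4 genes annotated as photoassimilate-responsive protein, PAR-1a or without the suffix, were all at -0.6 or less in K51-40, and 3 were members. Averaged over those 3, the level was 8.57 ± 0.13 in salt and 9.54 ± 0.15 in control roots of K51-40 (SD, n = 4 each), 9.52 ± 0.20 and 9.27 ± 0.23 in Cabernet Sauvignon (SD, n = 4 each), and 9.36 ± 0.31 and 8.95 ± 0.31 in 140 Ruggeri (SD, n = 3 each).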
